A study of Homo sapiens with 42 samples.

Results

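The genes described are the interleukins, the tumour necrosis factor (TNF) ligands, the receptors of both families, the TNF-alpha-induced proteins (TNFAIP) and the TRAF adaptor group. They were picked by gene symbol: probes that name 1 gene whose symbol starts with IL and a digit, TNFRSF, TNFSF, TNFAIP, or TRAF and a digit, leaving out IL32, IL1R1, IL1RAP and IL1RN. This gave 36 probes for 33 genes, of 5631 genes on the 13824 probes of the array. Where a gene had several probes, the one with the highest mean log2 value over all arrays was taken. The rule uses gene symbols and mean levels, not differences between groups. It was set with earlier results of these data known. By role they are 6 interleukins, 11 interleukin receptor chains, 4 TNF ligands, 4 TNF receptors, 4 TNFAIP genes and 4 genes of the TRAF group.

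The arrays measured total RNA of Hep3B, a human hepatoma cell line. Cells were placed in a medium enriched in pro-inflammatory cytokines (CM) or in its control medium (NCM), and were taken at T0, at 15 and 30 min, and at 1, 3, 6 and 16 h. A CM and an NCM culture of the same trypsinized cell batch formed a pair, and 3 independent experiments (S1, S2 and S3) gave 3 pairs per time, so 21 pairs and 42 arrays. All cultures were untreated apart from the medium, as far as the labels say, and T0 has a CM and an NCM array like the other times. The labels name no single cytokine of CM and do not say how the medium was made, and the cells are 1 tumour line. The levels are per culture, so fewer cells expressing a gene and less RNA per cell cannot be told apart.

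Interleukin 1 and TNF act on liver cells through receptors that recruit TRAF adaptors and switch on the transcription factor NF-kappaB. NF-kappaB then induces its own inhibitors, among them TNFAIP3, as well as further cytokines. Cytokines of the interleukin 6 family act through the shared chain IL6ST (gp130) and the transcription factor STAT3, and together the signals drive the acute phase response for which hepatocytes are known.

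Levels are given as log2 of the quantile-normalized intensity, and differences as CM minus NCM within pairs on that log2 scale. A level of 1 probe is not set against that of another, since probes differ in brightness. Most of the genes were dim: 23 of the 33 lay in the dimmer 50% of probes and 12 in the dimmest 25%, which limits the precision of their differences. The lowest value possible was the floor of -3.62, which 2 of the 1386 values of the 33 genes reached. The mean levels of 11 hepatocyte markers lay between the 69.9th and the 98.2nd percentile of all probes, and those of 14 measured markers of leukocytes, endothelium and fibroblasts between the 8.37th and the 80.3rd. These ranges overlap, and ranks of different probes also reflect their brightness, so they describe the arrays and do not test the cell type.

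Several arrays stood apart from the rest. The median correlation of an array with the other arrays was lowest for NCM at 1 h in S1 (0.723), for NCM at T0 in S2 (0.731), for NCM at 15 min in S1 (0.770) and for CM at 3 h in S1 (0.780). In 4 pairs the CM and the NCM array correlated under 0.9 over all probes, namely T0 in S2 (0.824), 15 min in S1 (0.854), 30 min in S2 (0.878) and 1 h in S1 (0.885). The CM array of 30 min in S2 held the highest of all 42 values for 12 of the 33 genes, and no other array held more than 2. The NCM array of T0 in S2 held the lowest value of 4 genes. Their part in single results was not tested beyond leaving them out. Values without them stand beside many of the results, and differences near 0 can take the other sign without them.

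**Figure D1:**
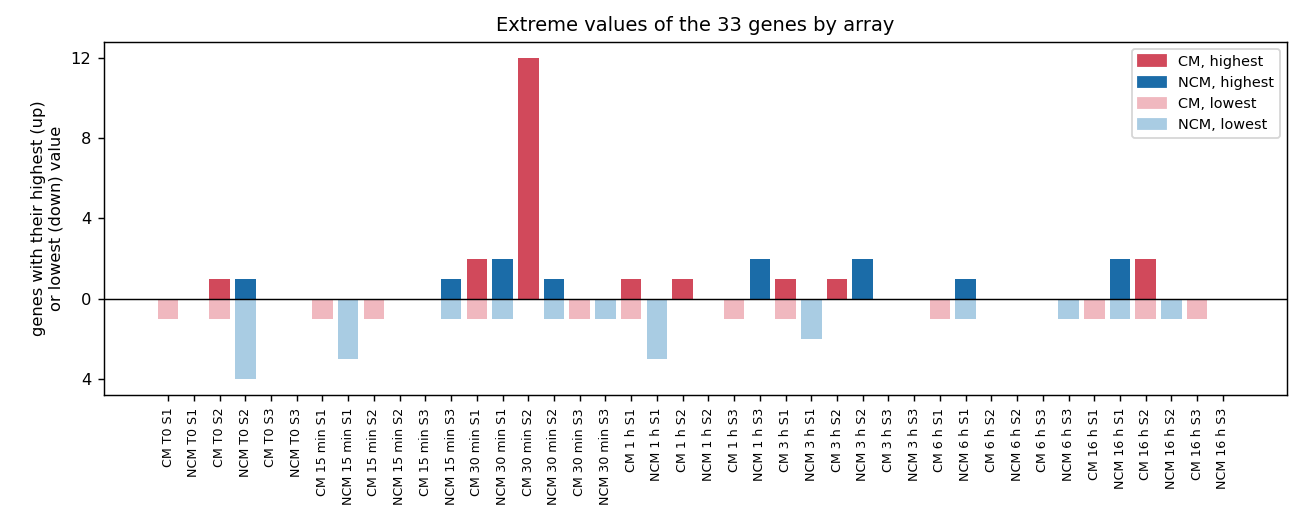
Number of the 33 genes (y axis) that have their highest value (bars up) or their lowest value (bars down) over all 42 arrays on each array (x axis, by time and experiment, CM left of NCM). The tallest bar is the CM array of 30 min in experiment S2, with 12 genes.

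None of the 33 genes differed between CM and NCM at an adjusted p under 0.05, at any time or in any mean over times (limma, adjusted over 13824 probes). The share of all probes that passed was 0.00723% at 16 h, 0.0434% in the mean of 3, 6 and 16 h (late mean), and 0% at each of the other 6 times and in the mean of 15 min, 30 min and 1 h (early mean). The lowest adjusted p of any of the genes was 0.445, for IL17RB in the late mean. In the early mean the lowest was 0.686, for TRAF6, and at single times it lay between 0.849 and 1.00. An unadjusted p under 0.05 is used below only to point at genes, with the share of all probes that reach it.

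At single times 0 to 4 of the 33 genes were under that unadjusted p. The numbers were 2 at T0 (6.06% of the genes, against 5.06% of all probes), 0 at 15 min (0%, against 3.56%), 2 at 30 min (6.06%, against 3.51%), 4 at 1 h (12.1%, against 4.38%), 3 at 3 h (9.09%, against 3.26%), 3 at 6 h (9.09%, against 3.76%) and 4 at 16 h (12.1%, against 4.76%). The share of the genes was above that of all probes at every time except 15 min, on counts of 2 to 4 genes. In the early mean 2 of 33 reached it (6.06%, against 7% of all probes). In the late mean 6 of 33 did (18.2%, against 5.98% of all probes), all with CM above NCM, a direction that 3.37% of all probes shared. The 6 were IL17RB, TNFAIP6, TNFSF13B, TRAF4, TNFAIP3 and IL15RA, and their adjusted p lay between 0.445 and 0.825.

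The 3 CM arrays and the 3 NCM arrays of a time did not overlap for 1 gene at T0 (2.65% of all probes), 0 at 15 min (4.52%), 1 at 30 min (2.76%), 4 at 1 h (4.77%), 4 at 3 h (4.82%), 2 at 6 h (4.27%) and 5 at 16 h (5.24%). These counts run from below the share of all probes at 15 min to 5 of 33 genes at 16 h, and the direction was mixed at 1, 3 and 16 h.

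The genes as a whole were centred near 0. Their median difference was 0.04 in the early mean, against 0.00 over all probes, and 0.02 in the late mean, against 0.01. In each of the means 19 of the 33 lay above 0. By role the late-mean medians were 0.29 for the TNFAIP genes (4 of 4 above 0), 0.09 for the interleukin receptors (7 of 11), 0.07 for the TRAF group (3 of 4), -0.04 for the interleukins (2 of 6), -0.09 for the TNF receptors (1 of 4) and -0.11 for the TNF ligands (2 of 4). All 33 intervals (95%) of the early and of the late mean lay within a log2 difference of 1 either way, so an average change of more than 2-fold lies outside each of these intervals. At single times the largest difference of any gene, in either direction, was 0.90.

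**Figure D2:**
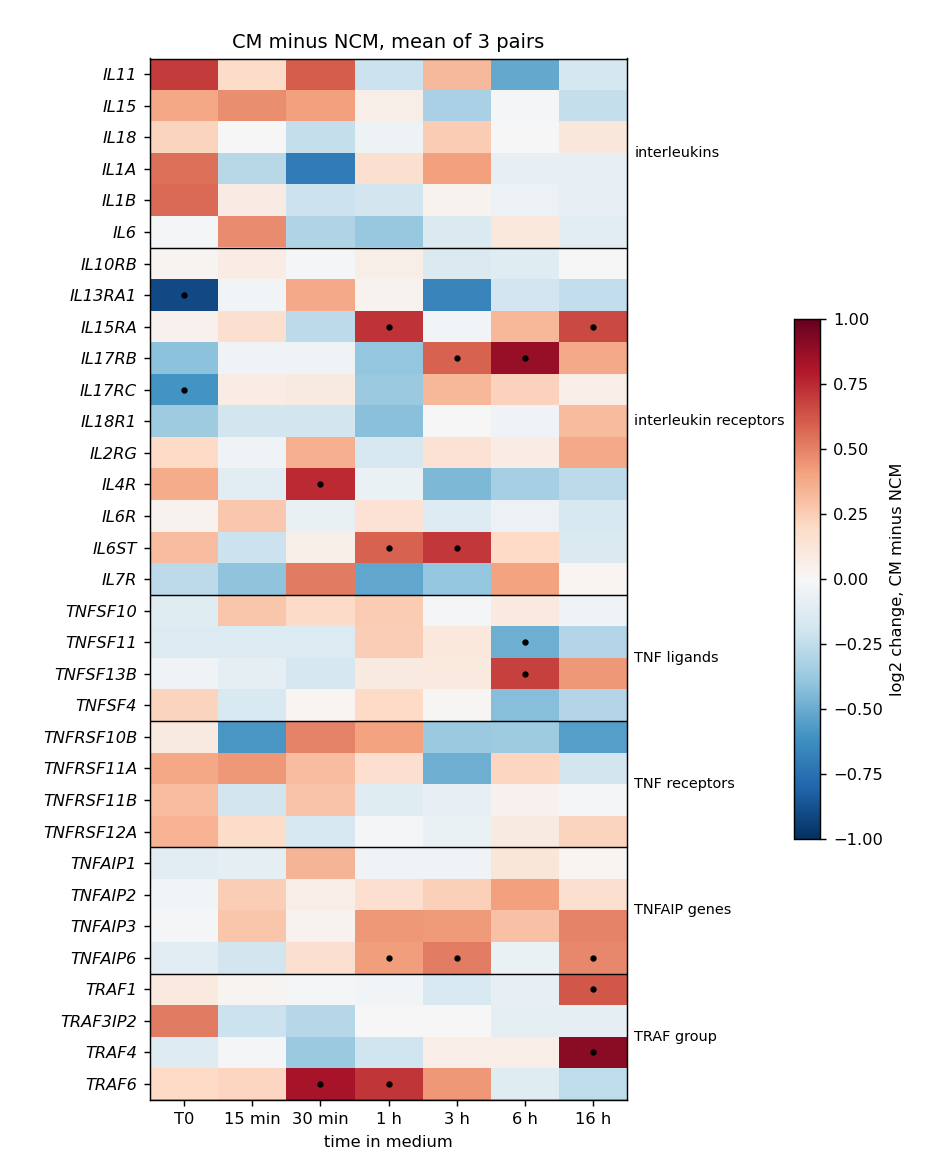
Log2 difference CM minus NCM (colour scale) for the 33 genes (rows, grouped by role) at the 7 times (columns), each the mean of 3 pairs, with cells of an unadjusted p under 0.05 marked. Marked cells are spread over the times with 0 to 4 per column, and no cell reaches a difference of 1.

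**Figure D3:**
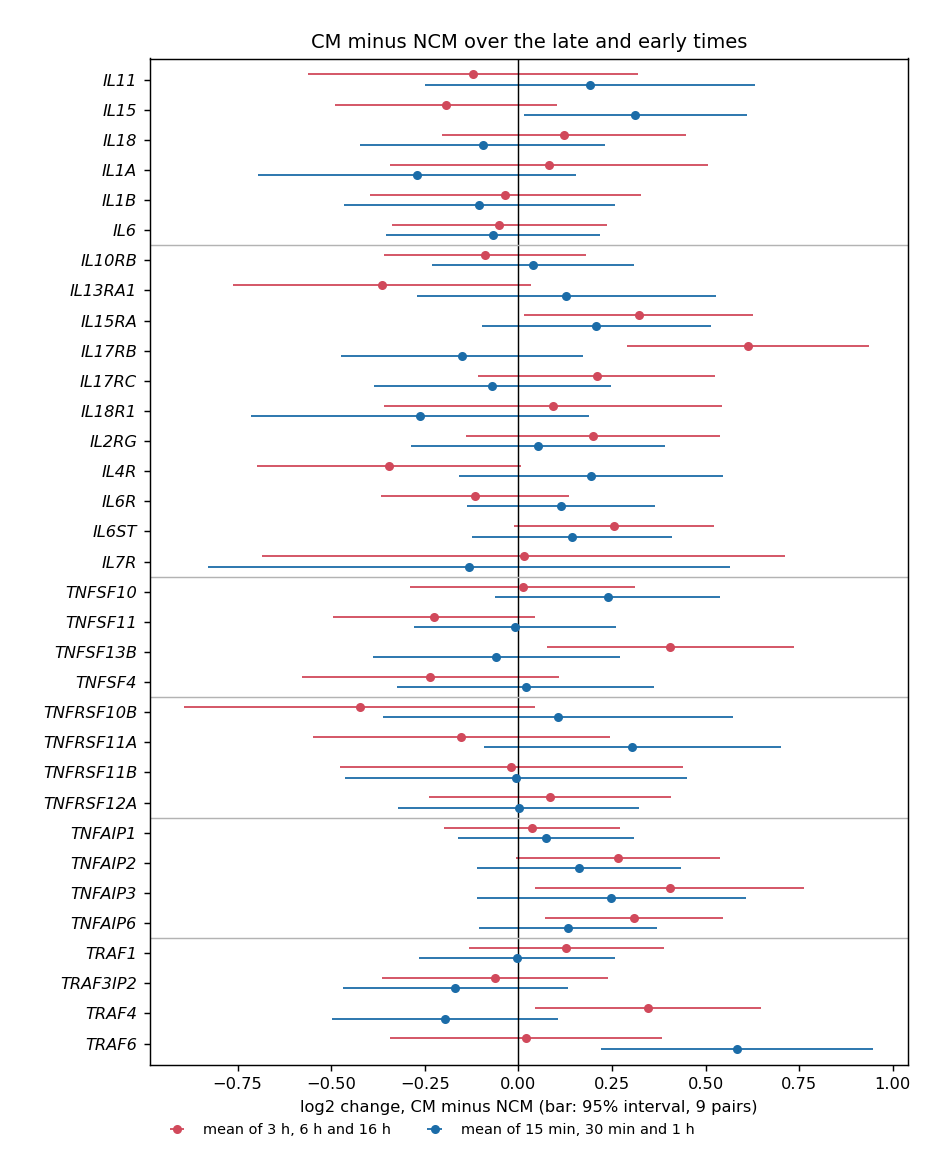
Log2 difference CM minus NCM (x axis) of each gene (rows, grouped by role) in the late mean (red) and the early mean (blue), with 95% intervals over 9 pairs. IL17RB lies farthest from 0 in the late mean (0.61) and TRAF6 in the early mean (0.58).

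Windows of 250 bases before the transcription start and 50 after it were searched in the 28 genes of the 33 that have an entry in the RefSeq promoter table (GRCh38.p14). TNFRSF10B, TNFRSF11B, TNFRSF12A, IL15 and IL18 have none. The stricter form of the NF-kappaB motif, 10 bases of which 2 are free, was read on both strands over the whole window and occurred in TNFAIP3 and IL6, which is 7.14% of the 28, against 1.63% of 27305 promoters. The looser form, with 4 free bases, includes it and occurred in 12 (42.9%, against 25.1%). The STAT pattern TTCNNNGAA occurred in 4 (14.3%, against 7.88%) and the AP-1 pattern TGANTCA in 5 (17.9%, against 7.76%). For the STAT pattern in IL10RB and the AP-1 pattern in IL6R the only match lay after the start. Printed here are the 250 bases before the start of TNFAIP3 and IL6, which hold the stricter NF-kappaB pattern, and of IL17RB and TNFAIP6, the genes with the smallest p in the late mean. The sequences are from RefSeq, on the gene's strand, 5′ to 3′, and end at the base before the start. Capitals mark the matches: GGAAAGTCCC in TNFAIP3, which is the stricter pattern read on the other strand, the overlapping matches GGGATTTTCC and GGATTTTCCC in IL6, the looser pattern GGCCCATCCC in IL17RB, and the AP-1 pattern TGAGTCA in TNFAIP6. TNFAIP3 lies at chr6:137867009-137867258 (plus strand), IL6 at chr7:22726950-22727199 (plus strand), IL17RB at chr3:53846318-53846567 (plus strand) and TNFAIP6 at chr2:151357342-151357591 (plus strand).
TNFAIP3: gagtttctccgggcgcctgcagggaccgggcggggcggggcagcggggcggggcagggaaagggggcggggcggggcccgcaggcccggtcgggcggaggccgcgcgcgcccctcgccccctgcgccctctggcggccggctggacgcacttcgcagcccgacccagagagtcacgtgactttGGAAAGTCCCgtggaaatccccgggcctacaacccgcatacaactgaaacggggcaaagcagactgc
IL6: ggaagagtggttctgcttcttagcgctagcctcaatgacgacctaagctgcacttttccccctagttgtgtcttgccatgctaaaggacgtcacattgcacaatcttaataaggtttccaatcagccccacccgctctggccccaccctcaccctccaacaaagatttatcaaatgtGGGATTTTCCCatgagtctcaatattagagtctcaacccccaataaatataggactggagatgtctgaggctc
IL17RB: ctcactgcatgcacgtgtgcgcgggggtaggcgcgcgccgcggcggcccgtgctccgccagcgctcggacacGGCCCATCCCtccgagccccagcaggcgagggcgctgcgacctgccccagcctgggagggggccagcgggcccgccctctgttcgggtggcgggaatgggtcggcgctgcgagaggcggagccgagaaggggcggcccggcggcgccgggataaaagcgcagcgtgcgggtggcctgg
TNFAIP6: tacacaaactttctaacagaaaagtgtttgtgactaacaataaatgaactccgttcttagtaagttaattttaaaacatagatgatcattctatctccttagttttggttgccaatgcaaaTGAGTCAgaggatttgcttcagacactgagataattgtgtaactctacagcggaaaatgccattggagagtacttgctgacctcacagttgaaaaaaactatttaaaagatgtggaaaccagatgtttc
The matches start 67 bases before the start in TNFAIP3, 73 and 72 in IL6, 178 in IL17RB and 129 in TNFAIP6. They describe the letters and say nothing of binding in these cells.

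Among the interleukins, the late-mean difference farthest from 0 was -0.19, for IL15. IL6, the main inducer of the acute phase response, had a late-mean difference of -0.05 (SE 0.14, 95% interval -0.34 to 0.24), with CM above NCM in 4 of 9 pairs. Its early-mean difference was -0.07 (SE 0.14, interval -0.35 to 0.22). Both intervals include 0, and the largest differences of IL6 were at single early times.

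At 15 min IL6 had -2.10, -1.22 and -1.80 in CM, against -1.91, -1.88 and -2.75 in NCM, a difference of 0.47 (SE 0.24, unadjusted p = 0.0599, limma) that was 0.81 without S1 and 0.24 without S3. At 1 h it had -1.47, -1.83 and -1.66 in CM, against -1.37, -1.40 and -1.06 in NCM. The CM arrays of 1 h all lay below the NCM arrays, which 4.77% of all probes also showed in one direction or the other. The difference at 1 h was -0.38 (SE 0.24, unadjusted p = 0.128, limma), so the signs at these times were opposite.

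IL1A and IL1B encode the ligands of the interleukin 1 receptor. At T0 the difference of IL1A was 0.55 and that of IL1B 0.57, and each rested on 1 pair. IL1A had -1.49, -0.77 and -1.56 in CM at T0, against -1.48, -2.76 and -1.23 in NCM. IL1B had -0.66, -0.20 and -1.01 in CM, against -0.60, -2.22 and -0.75 in NCM. In both genes the low value was the NCM array of S2, which stood apart over all probes, and the pair differences of S2 were 1.99 and 2.03. At 30 min IL1A had a difference of -0.70, with CM below NCM in each pair. The pair difference of S2 there was -1.65, and without S2 the 30 min difference was -0.22. Its early mean was -0.27, and 0.03 without S2. The early mean of IL1B was -0.10. Over the late times the difference was 0.08 for IL1A (SE 0.20) and -0.04 for IL1B (SE 0.17), both with 4 of 9 pairs above 0.

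IL15, a growth factor of natural killer and memory T cells, was among the 2 genes under an unadjusted p of 0.05 in the early mean. Its difference was 0.31 (SE 0.14, interval 0.02 to 0.61, unadjusted p = 0.0402, adjusted p = 0.691, limma), with 7 of 9 pairs above 0. The experiments gave 0.16 in S1, 0.82 in S2 and -0.04 in S3, and without S2 the difference was 0.06. At 30 min IL15 had -0.76, -0.65 and -2.45 in CM, against -1.0, -1.86 and -2.23 in NCM, with the widest gap in S2. In the late mean the difference was -0.19 (SE 0.14), with 8 of 9 pairs below 0, and -0.09 without S3.

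IL11, of the IL6 cytokine family, had differences of 0.70 at T0 (SE 0.37) and 0.60 at 30 min (SE 0.37), and of -0.51 at 6 h (SE 0.37). The T0 value was 0.37 without S2. Its 21 CM values lay between -2.96 and -0.89 with a median of -2.09, and its 21 NCM values between -3.58 and -1.22 with a median of -2.27. IL18, an inducer of interferon gamma, had 0.12 in the late mean (SE 0.16) and -0.10 in the early mean (SE 0.16), with an early value of -0.36 without the 4 least correlated pairs.

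The interleukin receptors held both the largest positive late-mean difference, IL17RB, and 2 of the lower ones, IL13RA1 and IL4R. IL17RB is a receptor chain for IL17B and IL25. At 3 h it had -0.69, -1.09 and -1.51 in CM, against -1.73, -1.74 and -1.57 in NCM, and the groups did not overlap, which 4.82% of all probes showed at that time. At 6 h it had -2.50, -1.42 and -1.57 in CM, against -3.62, -1.66 and -2.82 in NCM. At 16 h it had -1.96, -0.55 and -1.19 in CM, against -1.80, -1.45 and -1.59 in NCM. CM lay above NCM in 8 of these 9 pairs, the exception being S1 at 16 h.

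The IL17RB differences were 0.59 at 3 h (SE 0.27), 0.87 at 6 h (SE 0.27) and 0.38 at 16 h (SE 0.27), and that of 3 h was 0.36 without S1. Their mean was 0.61 (SE 0.15, interval 0.29 to 0.94, 1.53-fold, unadjusted p = 0.000746, adjusted p = 0.445, limma), and the experiments gave 0.67, 0.60 and 0.57. The value of -3.62 in NCM at 6 h in S1 is the floor, and another NCM value at 6 h, -2.82 in S3, is also far below the NCM values at 3 and 16 h. With the floor at the 10th percentile of intensity the late-mean difference was 0.41 and that of 6 h was 0.25. Before the late times the difference was -0.41 at T0, -0.03 at 15 min, -0.03 at 30 min and -0.39 at 1 h. IL17RB was 1 of 2 genes whose NCM levels alone differed over the 7 times at an unadjusted p under 0.05 (unadjusted p = 0.0171, limma F test), against 1.67% of all probes.

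IL15RA presents IL15 to neighbouring cells. At 1 h its brighter probe had 0.35, -0.12 and -0.16 in CM, against -1.12, -0.48 and -0.50 in NCM, with no overlap. The difference was 0.72 (SE 0.25, unadjusted p = 0.0102, adjusted p = 0.977, limma) and 0.35 without S1, whose NCM array of 1 h stood apart. At 16 h the probe had -0.77, 0.69 and -0.10 in CM, against -1.44, -0.15 and -0.56 in NCM, a difference of 0.66 (SE 0.25). The second IL15RA probe gave 0.03 at 1 h (SE 0.26) and -0.47 at 16 h (SE 0.26), where it had -1.27, -1.35 and -1.92 in CM, against -0.95, -1.31 and -0.88 in NCM. The late-mean difference was 0.32 by the brighter probe (SE 0.15, unadjusted p = 0.0399, adjusted p = 0.825, limma), -0.04 by the other and 0.14 by their mean. The signs of the probes were equal in 9 of 21 pairs, and their differences at 16 h and in the late mean were of opposite sign.

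IL6ST is the signalling chain shared by the IL6 cytokine family. At 3 h its brighter probe had -0.82, -0.25 and -0.60 in CM, against -1.02, -1.40 and -1.37 in NCM, and the groups did not overlap. At 1 h it had -1.10, -0.83 and -0.31 in CM, against -1.54, -1.40 and -1.07 in NCM, with CM above NCM in each pair. The differences were 0.59 at 1 h (SE 0.22, unadjusted p = 0.0154, adjusted p = 0.977, limma) and 0.71 at 3 h (SE 0.22, unadjusted p = 0.00454, adjusted p = 1.00, limma). The second probe gave 0.52 at 1 h (SE 0.29), also with no overlap, and 0.55 at 3 h (SE 0.29), where the pair differences were 1.40, -0.58 and 0.83. IL6ST was thus the gene with 2 probes whose probes had the same sign at the times that named it. By 16 h the differences were -0.14 and -0.46, and over all 21 pairs the probes shared a sign in 13.

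IL6R, the ligand-binding chain for IL6, had -0.12 in the late mean (SE 0.12, interval -0.37 to 0.14) and 0.11 in the early mean (SE 0.12, interval -0.14 to 0.37), an early value that was -0.10 without the 4 least correlated pairs. IL10RB, a chain of the IL10 and IL22 receptors, had -0.09 (SE 0.13) and 0.04 (SE 0.13, or -0.13 without those pairs), and its level varied least of the 33 genes over the 42 arrays (SD 0.24). These 2 receptors have the narrowest intervals of the receptor chains together with IL6ST.

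IL4R and IL13RA1 encode the chains of the shared receptor for IL4 and IL13, and both lay lower in CM in 8 of 9 late pairs. IL4R had -2.40, -0.83 and -0.86 in CM at 3 h, against -0.79, -0.73 and -1.22 in NCM. At 6 h it had -1.48, -1.33 and -1.44 in CM, against -1.07, -0.96 and -1.23 in NCM, with no overlap, which 4.27% of all probes showed. The late-mean difference was -0.35 (SE 0.17, unadjusted p = 0.0547, adjusted p = 0.827, limma), and -0.16 without S1. At 30 min the IL4R difference was 0.75 (SE 0.29), with a CM value of 0.72 on the array of S2 that held the highest value of 12 genes, and it was 0.31 without S2.

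IL13RA1 had -1.58, -1.36 and -1.88 in CM at 3 h, against -1.08, -0.52 and -1.25 in NCM, a difference of -0.66 (SE 0.33) with no overlap. Its late-mean difference was -0.36 (SE 0.19, unadjusted p = 0.0712, adjusted p = 0.827, limma). At T0 IL13RA1 had -1.52, -1.57 and -1.49 in CM, against -1.42, 0.81 and -1.26 in NCM. The T0 difference of -0.90 (SE 0.33, unadjusted p = 0.0131, limma) rested on the NCM array of S2, although the groups did not overlap, and was -0.16 without S2.

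IL17RC, which pairs with IL17RA to bind IL17A and IL17F, also had a T0 difference under an unadjusted p of 0.05, of -0.60 (SE 0.26). Its CM values at T0 were -1.56, -3.23 and -1.62, against -1.74, -1.41 and -1.46 in NCM, and without the pair of S2 the difference was 0.01. Its late-mean difference was 0.21 (SE 0.15), with 7 of 9 pairs above 0. IL2RG, the chain common to the receptors of IL2, IL7 and IL15, had 0.20 (SE 0.16), also with 7 of 9 pairs above 0. IL18R1, which binds IL18, had 0.09 (SE 0.22), and IL7R had 0.01 (SE 0.33), the widest interval of the 33 genes.

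Among the TNF ligands, TNFSF13B, the B cell survival factor BAFF, had the largest late-mean difference. At 6 h it had -0.32, -0.44 and -1.86 in CM, against -0.26, -0.85 and -3.57 in NCM. At 16 h it had -0.28, -0.71 and -0.60 in CM, against -1.10, -1.01 and -0.76 in NCM, with no overlap, which 5.24% of all probes showed. The 6 h difference of 0.69 (SE 0.27) rested on the NCM value of -3.57 in S3, close to the floor, and was 0.18 without S3. The late-mean difference was 0.41 (SE 0.16, interval 0.08 to 0.74, unadjusted p = 0.0185, adjusted p = 0.825, limma), with 7 of 9 pairs above 0.

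TNFSF10, the death ligand TRAIL, had 0.24 in the early mean (SE 0.14) and 0.01 in the late mean (SE 0.14, interval -0.29 to 0.31). The early value rested on S1, with pair differences of 1.04 at 15 min and 0.71 at 1 h, and was 0.03 without S1 and -0.05 without the 4 least correlated pairs. Its 21 CM values lay between 0.80 and 2.24 with a median of 1.32, and its 21 NCM values between 0.09 and 1.67 with a median of 1.34. TNFSF11, the osteoclast factor RANKL, had -2.67, -1.58 and -2.16 in CM at 6 h, against -1.74, -1.58 and -1.63 in NCM. The difference at 6 h was -0.48 (SE 0.22, unadjusted p = 0.0423, adjusted p = 0.999, limma), and in the late mean it was -0.22 (SE 0.13) with 7 of 9 pairs below 0. Without S1 the 6 h difference of TNFSF11 was -0.27. TNFSF4, the ligand of the T cell costimulator OX40, had -0.24 in the late mean (SE 0.16), and -0.06 without S2.

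The TNF receptors had no difference under an unadjusted p of 0.05 at any time. TNFRSF10B, a death receptor for TRAIL, had a late-mean difference of -0.42 (SE 0.22, unadjusted p = 0.0735, adjusted p = 0.827, limma), with 7 of 9 pairs below 0. Its CM values at 3 h were -3.10, -1.13 and -0.94, against -0.92, -1.38 and -1.77 in NCM. The low value came from the CM array of 3 h in S1, which stood apart, and the late-mean difference was -0.17 without S1. At 6 h the 3 CM arrays of TNFRSF10B lay below the 3 NCM arrays, with a difference of -0.36 (SE 0.39).

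TNFRSF11A, the receptor RANK, had 0.30 in the early mean (SE 0.19) and -0.15 in the late mean (SE 0.19). The early value was -0.07 without the 4 least correlated pairs, and the late value was 0.04 without S1, whose pair difference at 3 h was -1.46. TNFRSF11B, the decoy receptor osteoprotegerin, had -0.01 (SE 0.22) and -0.02 (SE 0.22), with an early value of -0.30 without the 4 least correlated pairs. TNFRSF12A, the receptor of the ligand TWEAK, varied most of the 33 genes over the 42 arrays (SD 0.96), and this variation was largely shared within pairs. At 1 h TNFRSF12A had -0.94, 0.57 and -2.76 in CM, against -1.24, 0.44 and -2.28 in NCM, and its late-mean difference was 0.08 (SE 0.15). The spread of this gene at 1 h thus lay mainly between pairs. Gaps within pairs were wider at some other times, with 0.95 at T0 in S3, 0.90 at 15 min in S1 and -0.72 at 30 min in S2.

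The TNFAIP genes were the group whose 4 members all lay above 0 in both the early and the late mean. At T0 all 4 lay below 0 (median -0.06), while the 4 TNF receptors all lay above 0, so such agreement also arose at T0. Without the 4 least correlated pairs the early values of TNFAIP1 and TNFAIP2 were -0.05 and 0.01. TNFAIP3 encodes A20, which ends NF-kappaB signalling by editing ubiquitin chains, and has the stricter NF-kappaB pattern in the window printed above. At 3 h it had -1.94, -1.40 and -0.90 in CM, against -2.49, -1.56 and -1.46 in NCM. At 6 h it had -1.24, -0.99 and -1.61 in CM, against -1.53, -1.33 and -1.86 in NCM. At 16 h it had -0.78, -1.56 and -1.17 in CM, against -2.18, -1.43 and -1.38 in NCM. CM lay above NCM in 8 of 9 late pairs, while the groups overlapped at each of these times. At 16 h the pair of S2 ran the other way.

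The TNFAIP3 difference was 0.42 at 3 h, 0.29 at 6 h and 0.50 at 16 h (SE 0.30 each), and 0.40 in the late mean (SE 0.17, interval 0.05 to 0.76, 1.32-fold, unadjusted p = 0.0291, adjusted p = 0.825, limma). The experiments gave 0.75 in S1, 0.13 in S2 and 0.34 in S3, and the late mean was 0.23 without S1. On the values as deposited it was 0.19. In the early mean it was 0.25 (SE 0.17, interval -0.11 to 0.61), with 6 of 9 pairs above 0, and 0.10 without S1. At 1 h TNFAIP3 had -1.39, -0.35 and -1.14 in CM, against -1.42, -1.50 and -1.24 in NCM, and the gap of 1.16 in S2 was the largest of the early pairs.

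TNFAIP6 encodes TSG-6, a secreted protein that binds hyaluronan. At 3 h it had -0.91, -0.65 and -0.94 in CM, against -1.64, -1.19 and -1.21 in NCM, with no overlap. At 16 h it had -0.70, -0.91 and -0.63 in CM, against -0.71, -1.57 and -1.41 in NCM. The CM values of S2 and S3 lay above their NCM values at 16 h, and those of S1 were 0.01 apart. At 6 h it had -1.29, -0.99 and -1.41 in CM, against -1.15, -1.06 and -1.28 in NCM. TNFAIP6 differed by 0.51 at 3 h (SE 0.20), -0.07 at 6 h (SE 0.20) and 0.48 at 16 h (SE 0.20). The late mean was 0.31 (SE 0.11, interval 0.07 to 0.55, 1.24-fold, unadjusted p = 0.0132, adjusted p = 0.813, limma), and the experiments gave 0.20, 0.42 and 0.31. At 1 h the difference was 0.42 (SE 0.20), with CM above NCM in 3 of 3 pairs.

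TNFAIP2, a TNF-inducible protein linked to membrane protrusions, was the one gene with CM above NCM in all 9 late pairs, which 0.441% of all probes showed. At 3 h it had -1.56, -1.38 and -1.46 in CM, against -1.89, -1.73 and -1.49 in NCM. At 6 h it had -1.15, -1.28 and -1.38 in CM, against -1.30, -1.47 and -2.27 in NCM. At 16 h it had -1.40, -1.21 and -1.35 in CM, against -1.56, -1.41 and -1.46 in NCM, with no overlap. The pair differences lay between 0.03 and 0.35 except for 0.88 in S3 at 6 h. The late-mean difference was 0.27 (SE 0.13, interval -0.01 to 0.54, unadjusted p = 0.0551, adjusted p = 0.827, limma), and 0.08 on the values as deposited, without quantile normalization. TNFAIP1, an adaptor of a cullin ubiquitin ligase, had 0.04 (SE 0.11, interval -0.20 to 0.27).

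**Figure D4:**
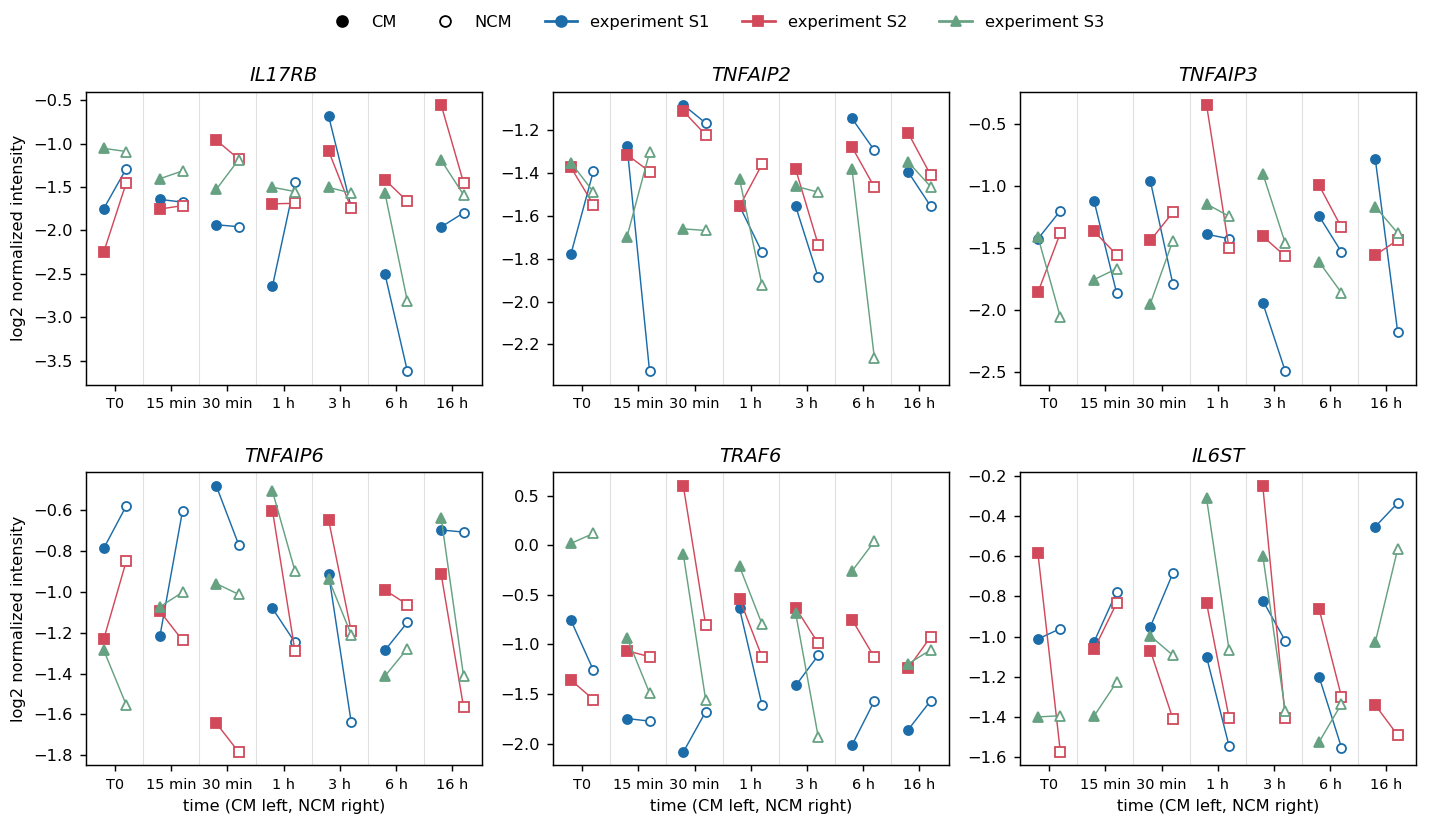
Log2 normalized intensity (y axis, own scale per panel) of IL17RB, TNFAIP2, TNFAIP3, TNFAIP6, TRAF6 and IL6ST on all 42 arrays by time (x axis), with CM filled on the left and NCM open on the right and a line joining each pair. Colours and shapes mark the 3 experiments. At 3, 6 and 16 h 9 of 9 lines of TNFAIP2 and 8 of 9 of IL17RB and TNFAIP3 slope down from CM to NCM.

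TRAF6 is the adaptor that links interleukin 1 receptors to NF-kappaB, and it had the largest early-mean difference. At 30 min it had -2.09, 0.60 and -0.09 in CM, against -1.68, -0.81 and -1.56 in NCM. At 1 h it had -0.64, -0.54 and -0.21 in CM, against -1.61, -1.13 and -0.79 in NCM, with no overlap. At 30 min the pair of S1 ran the other way from S2 and S3, and the CM value of S2 came from the array that stood apart. The differences were 0.21 at 15 min, 0.83 at 30 min and 0.71 at 1 h (SE 0.30 each), and the early mean was 0.58 (SE 0.17, interval 0.22 to 0.95, unadjusted p = 0.00317, adjusted p = 0.686, limma) with 8 of 9 pairs above 0. The experiments gave 0.20, 0.69 and 0.87. At 30 min the difference was 0.53 without S2 and 0.50 without S3. In the late mean the difference was 0.02 (SE 0.17, interval -0.34 to 0.38).

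TRAF4, an adaptor known from epithelial cells, had its largest difference at 16 h. Its brighter probe had 0.11, -0.61 and -0.31 in CM, against -0.67, -2.06 and -0.79 in NCM, with no overlap and the lowest value in NCM of S2. The difference was 0.90 (SE 0.25, unadjusted p = 0.00174, adjusted p = 0.849, limma). The second TRAF4 probe had -0.85, -0.77 and -0.38 in CM at 16 h, against -0.77, -0.83 and -0.22 in NCM, a difference of -0.06 (SE 0.31). The late mean of the brighter probe was 0.35 (SE 0.14, unadjusted p = 0.0266, adjusted p = 0.825, limma) and 0.07 without 16 h. The second probe gave a late mean of 0.23 (SE 0.18), of the same sign, but did not share the 16 h difference. The probes had the same sign in 9 of 21 pairs.

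TRAF1, itself a target of NF-kappaB, had -0.27, -1.34 and -0.55 in CM at 16 h, against -1.29, -1.26 and -1.47 in NCM. The CM values of S1 and S3 lay above all NCM values, and that of S2 lay among them. The difference was 0.62 (SE 0.22, unadjusted p = 0.00962, adjusted p = 0.942, limma), and over the late times it was 0.13 (SE 0.13). TRAF3IP2, the adaptor Act1 of the IL17 receptors, had -0.06 in the late mean (SE 0.14). Its T0 difference of 0.52 (SE 0.25) rested on a pair difference of 1.45 in S2, where the NCM array stood apart, against 0.04 in S1 and 0.06 in S3.

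**Figure D5:**
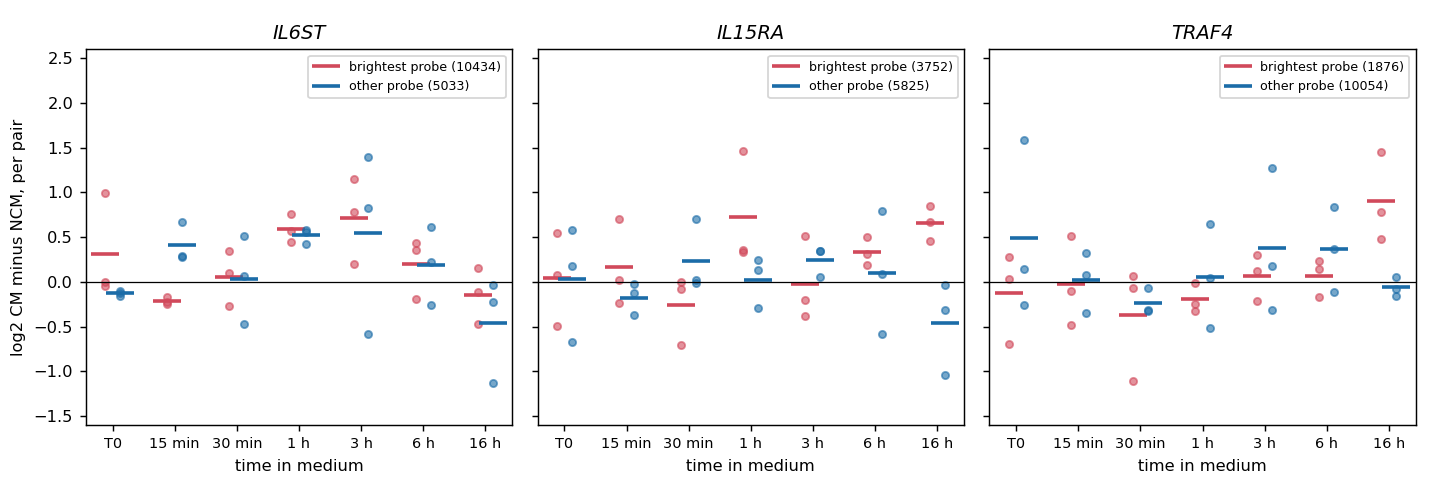
Log2 difference CM minus NCM of each pair (points) and the mean of 3 pairs (dashes), on the y axis, by time (x axis) for the 2 probes of IL15RA, IL6ST and TRAF4. The means of the IL6ST probes lie on the same side of 0 at 1 and 3 h, while those of IL15RA and TRAF4 part at 16 h. In the S2 pair of 3 h the IL6ST probes lie on opposite sides of 0.

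The change between the time windows was tested as the late mean minus the early mean of the CM minus NCM difference. It was largest for IL17RB, at 0.76 (SE 0.22, interval 0.31 to 1.22, unadjusted p = 0.00225, adjusted p = 0.589, limma), and 0.49 to 0.87 under the alternatives. The early side of IL17RB leaned on the S1 pair of 1 h, among the least correlated pairs. Its difference was -1.20, against -0.01 in S2 and 0.05 in S3. TRAF4 followed with 0.54 (SE 0.20) by its brighter probe, and with 0.28 without S2. On the lower side were TRAF6 at -0.56 (SE 0.25), IL4R at -0.54 (SE 0.24) and IL15 at -0.51 (SE 0.20), which was -0.32 without S2. These 5 genes were under an unadjusted p of 0.05, against 7.49% of all probes, and none passed after adjustment. Against T0, the late mean differed at an unadjusted p under 0.05 in IL17RB (1.02, SE 0.31), IL17RC (0.81, SE 0.30) and IL4R (-0.72, SE 0.34), against 3.89% of all probes. For IL17RC this rests on the T0 pair of S2 described above.

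An F test over the 6 times after T0 was under an unadjusted p of 0.05 for TNFAIP6, TRAF4, TRAF6, IL15RA, IL17RB and IL6ST, with p between 0.0209 and 0.0459 (limma), against 2.99% of all probes. A test of whether the difference varied among the times was under it for IL17RB (unadjusted p = 0.0192, limma) and TRAF4 (unadjusted p = 0.0457), against 2.22%. In NCM alone, IL17RB and TRAF4 (unadjusted p = 0.0336, limma) were the genes whose level varied over the 7 times at that threshold. None of the 33 passed after adjustment in NCM, where 0.0145% of all probes did.

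Of 35 listed ligands and receptors of these families with other symbols, 11 were measured and none passed after adjustment in any comparison. In the early mean 6 of the 11 lay above 0 (median 0.02), and in the late mean 4 did (median -0.05). In each mean 1 gene reached an unadjusted p under 0.05, against 7% of all probes early and 5.98% late. FAS, a death receptor of the TNF receptor family, had a late-mean difference of 0.55 (SE 0.16, unadjusted p = 0.00242, adjusted p = 0.604, limma), with 8 of 9 pairs above 0. TNF itself had 0.04 in the early mean and -0.08 in the late mean. LIF, of the IL6 cytokine family, had 0.39 in the early mean (unadjusted p = 0.0277, limma). The probes of FAS and LIF were dim, at the 7.68th and the 8.67th percentile of all probes. On the lower side LTB had -0.54 in the late mean (SE 0.29) and CSF3 had -0.40 (SE 0.25). At 1 h CSF3R had -0.62 (SE 0.23), with CM below NCM in each pair.

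Of 60 listed signalling genes downstream of these receptors, 30 were measured and none passed after adjustment. In the early mean 2 lay higher and 1 lower at an unadjusted p under 0.05, against 7% of all probes, and in the late mean 4 lay higher and 1 lower, against 5.98%. Of the 30, 19 lay above 0 in the early mean (median 0.07) and 15 in the late mean (median -0.005). The genes named next all lay higher and do not stand for the list, since the lower gene of each mean is not named. The list was made with earlier results of these data known. NFKBIA, the inhibitor that NF-kappaB induces to hold itself in the cytoplasm, had an early-mean difference of 0.85 (unadjusted p = 1.93e-05, adjusted p = 0.267, limma), with 8 of 9 pairs above 0. NFKB1, a subunit of NF-kappaB, had 0.53 in the late mean (unadjusted p = 0.00141, limma), and IRAK2, a kinase of the interleukin 1 pathway, had 0.43 (unadjusted p = 0.01, limma). The early-mean difference of NFKBIA was the largest of all 13824 probes, so it is no yardstick for the 33 genes.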

How the data were processed

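The 42 arrays, 21 per medium, hold total RNA of Hep3B cultures. The deposited values are linear intensities, 1 per probe and array, with a mean near 1 on each array (0.999 to 1.00) and up to 2.12% negative values. The array type, like the scanner, the background step and the scaling, is not given in the sources used here. Arrays were quantile normalized, set to a floor at the common 1st percentile (0.0812) and log2 transformed. R 4.3.3 with limma 3.58.1 fitted 1 term per pair and a CM effect per time over all 42 arrays (14 residual and 6.26 prior degrees of freedom), with two-sided moderated tests adjusted by Benjamini-Hochberg over 13824 probes. Plots used matplotlib 3.10.9. The pairs come from the labels, and deviations of paired arrays correlated at 0.308 to 0.754 in 21 of 21 pairs. Early and late means take 9 pairs from 3 experiments. The labels do not say whether an experiment number joins cultures of different times, so their errors may overstate the replication. The number of arrays limits the precision. The script was tested on simulated data.

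The members and lists were chosen with earlier results of these data known. Named genes were the 4 with the smallest p in each comparison, those with all 9 pairs in 1 direction, and a fixed list of well-known members. All 33 symbols matched RefSeq. Probes naming several genes (576) were left out of the choice. Alternatives covered the block, normalization, floor, dim-probe filters, probe choice, copied values, spread model, samples in the fit, the T0 baseline and each replicate. Neighbour centring (the mean deviation of nearby probe numbers removed, taking the numbering as array position), leaving out a time, and leaving out the 4 least correlated pairs were chosen after seeing the data.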

Additional observations from a re-analysis of the deposited data

How the results depend on the processing

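No member was called under any alternative, the fit with no replicate block included, where 0 of 33 passed in the early and in the late mean, and the lowest adjusted p of any alternative was 0.171 (IL17RB in the late mean without the 4 least correlated pairs). Of 1526 alternative values of single genes, 117 had the other sign, and 55 of 98 results kept their sign throughout. The number of genes at an unadjusted p under 0.05 in the late mean, 6, was 2 with no replicate block, 2 without 16 h and 3 without replicate 3. It was 3 without the dimmest 50% of probes, a filter that drops 23 of the 33 genes, IL17RB, TNFAIP6 and TNFAIP3 included. It was 11 without the 4 least correlated pairs. Those 4 pairs are of T0 and the early times. Leaving them out thus keeps the late differences and changes only the estimated spread, which also holds for the adjusted p of 0.171. In the early mean it was 2, with 0 under no replicate block and 6 under neighbour centring. The late-mean difference of IL17RB stayed between 0.41 and 1.02, that of TNFAIP6 between 0.21 and 0.50, that of TNFAIP3 between 0.19 and 0.54 and that of TNFSF13B between 0.24 and 0.56. The upper IL17RB value is against T0. IL13RA1 in the late mean turned to 0.54 against T0, where 1 NCM array is high. Late means near 0 had no fixed sign when 1 experiment was left out: they ran from -0.42 to 0.36 for IL7R, -0.23 to 0.48 for IL18R1, -0.21 to 0.07 for IL6, -0.10 to 0.21 for TNFRSF12A, -0.02 to 0.20 for TRAF1 and -0.22 to 0.12 for TRAF3IP2. Over all probes, 1 was called at 16 h, with 0 to 7 under the alternatives, and 6 in the late mean, with 0 to 10. Leaving out any 1 replicate gave 0 in both. In NCM over times 2 were called, with 0 to 2. Dim signal limits what can be seen: 12 of the 33 genes lie in the dimmest 25% of probes.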
